A study of Homo sapiens with 6 samples.

Results

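The RNAs described here are the expressed long intergenic LINC RNAs of 143B cells, a human osteosarcoma line. They were chosen as the genes whose symbol is LINC followed by a number, whose transcript type in the deposited table holds no protein-coding entry, and whose mean count over the control libraries was at least 100. Of 1926 LINC genes without a protein-coding type, 89 met this rule, in a table of 58825 genes. The other 1837 had a mean control count under 100, and 1415 of these had no count in any library. Of the 89 members, 63 had lincRNA as their only transcript type in the deposited table, 7 held a pseudogene type and 3 an antisense type. The control counts chose the members, so levels in the control libraries are given below as a description and carry no test.

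The study compared 143B cells that received a negative control siRNA with cells that received an siRNA against SIGLEC15, the gene of a Siglec, a cell-surface lectin that recognises sialic acids, with 3 libraries in each group. Both groups were grown with 10% fetal bovine serum and took 80 nmol/L siRNA with the same transfection reagent, and RNA was taken after 36 h. The libraries were made from poly(A) RNA, so transcripts without a poly(A) tail were selected against in both groups. The labels describe 1 cell line and 1 siRNA against SIGLEC15, and give no siRNA sequence. Nothing in them ties the 3 replicates of a group to separate dishes, and the p-values below then reflect only how far these 6 libraries scatter, which could be technical scatter.

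Long intergenic non-coding RNAs are transcribed by RNA polymerase II, spliced and polyadenylated much as mRNAs are, but hold no long conserved reading frame. A LINC symbol is a placeholder given by position, and most LINC RNAs have no established function. Those that have been studied in cultured tumour cells act as scaffolds for chromatin enzymes, as hosts of small nucleolar RNAs or microRNAs, as binding sites for RNA-binding proteins, or through the act of transcription beside a coding gene. They are usually scarcer and more restricted to certain cell types than mRNAs.

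SIGLEC15 itself was barely detected in either group. Its counts were 12, 10 and 22 in the control libraries and 12, 8 and 6 in the SIGLEC15 siRNA libraries, a level of 0.241 ± 0.103 CPM against 0.136 ± 0.0461 CPM (mean ± SD, n = 3), where CPM is the count scaled to a common library size and composition. The groups overlapped and the difference did not pass (adjusted p = 0.529, edgeR quasi-likelihood test), so the knockdown could not be checked at this depth. Total counts per library ran from 57966691 to 67655254, where 1 count is worth 0.0149 to 0.017 CPM. Of the osteoblast-lineage markers, 8 of 10 in the table could be tested. With SIGLEC15 siRNA 2 of them were higher, SPARC and COL1A1, beside 2.22% of all genes tested, and 0 were lower, beside 2.43%. The median log2 fold change of the 8 was -0.14, so the markers did not rise as a set. COL1A2 stood at 0.00327 FPKM in the control libraries and IBSP had no count. The 10 summed to 86.4 to 89.7 FPKM in the control and 131.9 to 135.0 FPKM in the SIGLEC15 siRNA libraries. Of 8 epithelial markers the keratin genes KRT18 and KRT8 were abundant and CDH1 had no count (summed 211.8 to 255.5 against 223.3 to 244.2 FPKM). Of 8 leukocyte markers 5 had no count in any library, PTPRC among them, and the sum of 16.5 to 22.0 against 11.2 to 18.4 FPKM was nearly all CD68, a lysosomal protein gene. The 6 endothelial markers summed to at most 0.182 FPKM. The part of these markers in the results below was not tested.

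Promoter sequences are shown for 5 LINC RNAs. Of those that differed between the groups, the 3 whose promoter held the letters TGANTCA, with N any base, are shown. The recognition motif of AP-1 transcription factors has C or G as N, so TGANTCA is a looser form of it. The head-to-head pair LINC01356 and LINC01357, which both had lower values with SIGLEC15 siRNA, is shown as well. All 5 are RefSeq promoters on GRCh38.p14, from 250 bases before to 50 bases after the RefSeq start site. They are written 5′ to 3′ on the strand of the gene with TGANTCA in capitals. Motifs and promoters to print were settled after the differences were known.

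LINC00339, chr1:22024941-22025240, plus strand: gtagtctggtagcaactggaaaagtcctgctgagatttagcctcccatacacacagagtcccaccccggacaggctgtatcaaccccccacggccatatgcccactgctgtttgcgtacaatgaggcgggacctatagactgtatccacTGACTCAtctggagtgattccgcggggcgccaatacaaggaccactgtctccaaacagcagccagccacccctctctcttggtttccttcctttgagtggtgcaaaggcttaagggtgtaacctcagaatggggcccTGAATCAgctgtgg

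LINC01615, chr6:169162940-169163239, minus strand: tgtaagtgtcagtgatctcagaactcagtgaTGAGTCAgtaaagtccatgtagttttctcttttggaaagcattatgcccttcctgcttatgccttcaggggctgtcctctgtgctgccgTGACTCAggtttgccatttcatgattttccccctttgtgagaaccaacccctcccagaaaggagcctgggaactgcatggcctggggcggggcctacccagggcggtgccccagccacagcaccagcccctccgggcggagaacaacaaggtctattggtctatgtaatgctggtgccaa

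LINC02535, chr6:85404753-85405052, minus strand: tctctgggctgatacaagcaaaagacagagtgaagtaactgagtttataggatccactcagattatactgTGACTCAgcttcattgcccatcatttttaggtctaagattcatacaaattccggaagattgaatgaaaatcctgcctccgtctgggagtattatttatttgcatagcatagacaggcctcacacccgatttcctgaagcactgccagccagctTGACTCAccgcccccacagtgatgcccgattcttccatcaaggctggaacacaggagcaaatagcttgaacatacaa

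LINC01357, chr1:112849607-112849906, plus strand: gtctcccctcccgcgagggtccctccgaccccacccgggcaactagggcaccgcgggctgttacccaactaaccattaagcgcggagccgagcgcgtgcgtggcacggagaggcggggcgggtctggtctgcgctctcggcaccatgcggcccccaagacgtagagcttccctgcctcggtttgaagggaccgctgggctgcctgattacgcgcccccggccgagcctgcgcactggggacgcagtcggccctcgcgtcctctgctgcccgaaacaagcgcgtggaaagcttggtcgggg

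LINC01356, chr1:112850594-112850893, minus strand: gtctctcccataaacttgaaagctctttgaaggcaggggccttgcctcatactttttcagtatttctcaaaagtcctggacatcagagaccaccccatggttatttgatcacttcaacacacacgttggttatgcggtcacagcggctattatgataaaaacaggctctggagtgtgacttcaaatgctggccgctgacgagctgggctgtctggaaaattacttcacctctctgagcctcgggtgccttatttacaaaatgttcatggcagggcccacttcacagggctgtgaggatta

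The RefSeq start site lay 633 bases from the deposited start for LINC00339, 65 bases for LINC01615, 171 bases for LINC01357 and 0 bases for LINC01356. For LINC02535 it lay 14616 bases away, so that this window belongs to a longer RefSeq model than the deposited one. In LINC00339 TGACTCA began 101 bases before the start site, and TGAATCA, whose middle base is neither C nor G, 36 bases after it. In LINC01615 TGANTCA began 219 and 130 bases before the start site, and in LINC02535 180 and 27 bases before it. TGANTCA reads the same on both strands apart from its middle base, and in these windows it overlapped no other motif searched. RefSeq promoters were found for 73 of the 89 members, and 8 of these (11.0%) held TGANTCA, beside 7.76% of 27305 promoters of the same length. Among the 8, the windows of LINC00973, LINC02535 and LINC00963 lay 66492, 14616 and 5209 bases from the deposited start. Such windows need not be promoters of the deposited transcripts. Among the members with an adjusted p under 0.05, 5 had a RefSeq promoter and 3 of them held TGANTCA, LINC02535 included. The CCAAT box, counted on both strands like the motifs that follow, was in 42.5% of member promoters and 35.7% of all, GGGCGG in 50.7% and 44.6%, and TATAAA in 12.3% and 12.0%. The other motifs were in 6.85% and 14.0% (GGAATG), 34.2% and 36.3% (GCGTG), 5.48% and 7.43% (CACGTG), 2.74% and 2.1% (CGCATGCGC) and 1.37% and 1.08% (the core of the ZNF143 motif) of member and of all promoters. The LINC00662 promoter held no TGANTCA, and LINC01011 was not among the matched promoters. A match is a run of letters and does not show that a factor binds there.

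The members covered a wide range of levels. FPKM, the count scaled by transcript length and library size that the authors deposited beside the counts, is the scale on which levels are compared between genes here. Mean control FPKM ran from 0.082 to 26.0 with a median of 1.17. It was at least 1 for 51 members, at least 5 for 9, and under 0.5 for 14. The 8 most abundant members held 41.4% of the members' summed control FPKM, and all 89 together took 0.0754%, 0.0774% and 0.0796% of the counts of the control libraries.

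LINC01357, transcribed from chromosome 1 beside the lactate transporter gene SLC16A1, had the highest level, at 23.6, 26.0 and 28.6 FPKM in the control and 17.4, 16.4 and 17.3 FPKM in the SIGLEC15 siRNA libraries. LINC00839, on chromosome 10, followed at 16.1, 15.8 and 15.5 FPKM against 18.3, 17.3 and 16.8 FPKM. The control ranges of these 2 RNAs did not overlap each other, and neither overlapped the next. LINC02657, which RefSeq names LASTR and which is known as a stress-associated RNA that acts on splicing, stood at 9.35 ± 1.23 FPKM in the control group, and LINC00622 at 9.24 ± 1.64 FPKM, a gap smaller than the SD of either. LINC02001 had 7.51 ± 0.35 FPKM. It is named SNHG30 by RefSeq and hosts SNORD7, one of the small nucleolar RNAs that guide ribose methylation. LINC00342 followed with 6.86 ± 0.628, LINC01116, which lies on the flank of the HOXD cluster, with 6.63 ± 0.289, and LINC01356 with 6.56 ± 0.631 FPKM, and these 3 did not differ beyond their spread.

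**Figure D1:**
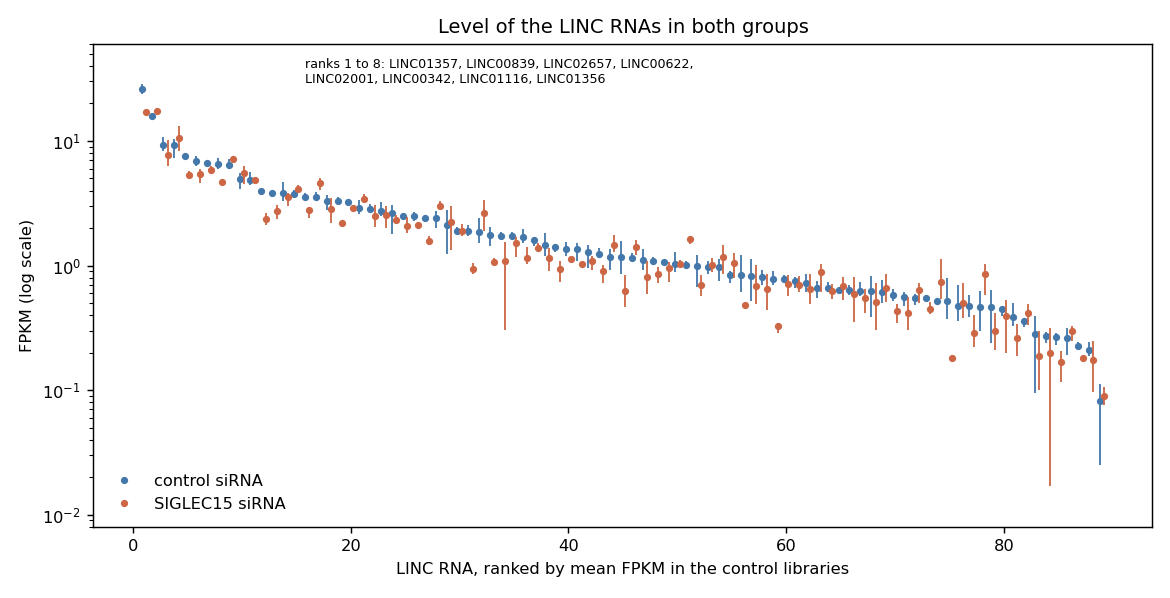
FPKM on a log axis for the 89 LINC RNAs in order of their mean in the control libraries, with points for the group means and lines from the lowest to the highest of the 3 libraries of control siRNA (blue) and SIGLEC15 siRNA (orange). The means fall from 26.0 FPKM for LINC01357 to 0.082 FPKM for the last member, and a few members low in the order have lines that span several-fold.

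At the other end of the rule, LINC00461, LINC01560 and LINC00265 were the members with the lowest mean control counts. LINC00461, a host transcript of the neuronal microRNA gene MIR9-2, had 109, 95 and 98 counts in the control and 84, 80 and 92 in the SIGLEC15 siRNA libraries. LINC01560 had 96, 81 and 126 against 60, 93 and 77 counts, and LINC00265 145, 114 and 55 against 67, 46 and 104. Just outside, LINC00863 had 94, 103 and 99 control counts, LINC02577 73, 117 and 96, and LINC01003 84, 98 and 92. The mean control counts of these 6 genes lay close together, so the threshold at 100 marks no gap in the counts. Their mean control FPKM was less alike, from 0.224 for LINC00461 to 1.1 for LINC01560.

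In the comparison of SIGLEC15 siRNA with control siRNA, 6 LINC RNAs differed. LINC00339, LINC01011, LINC01615, LINC00662 and LINC01357 fell by between 1.51-fold and 2.35-fold, and LINC02535 rose 1.62-fold. Each of the 6 had groups that did not overlap, with every SIGLEC15 siRNA library on 1 side of every control library. All 89 members passed the filter on low counts, and 6 of 89 is 6.74%, beside 4.65% of the 18910 genes tested. In the separate directions, 1 of 89 was higher, beside 2.22% of all genes tested, and 5 of 89 were lower, beside 2.43%. Genes with a mean control count of at least 100 of any type were called in 6.22% of cases, protein-coding genes at that level in 6.76%, and other genes without a protein-coding type in 2.01%.

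**Figure D2:**
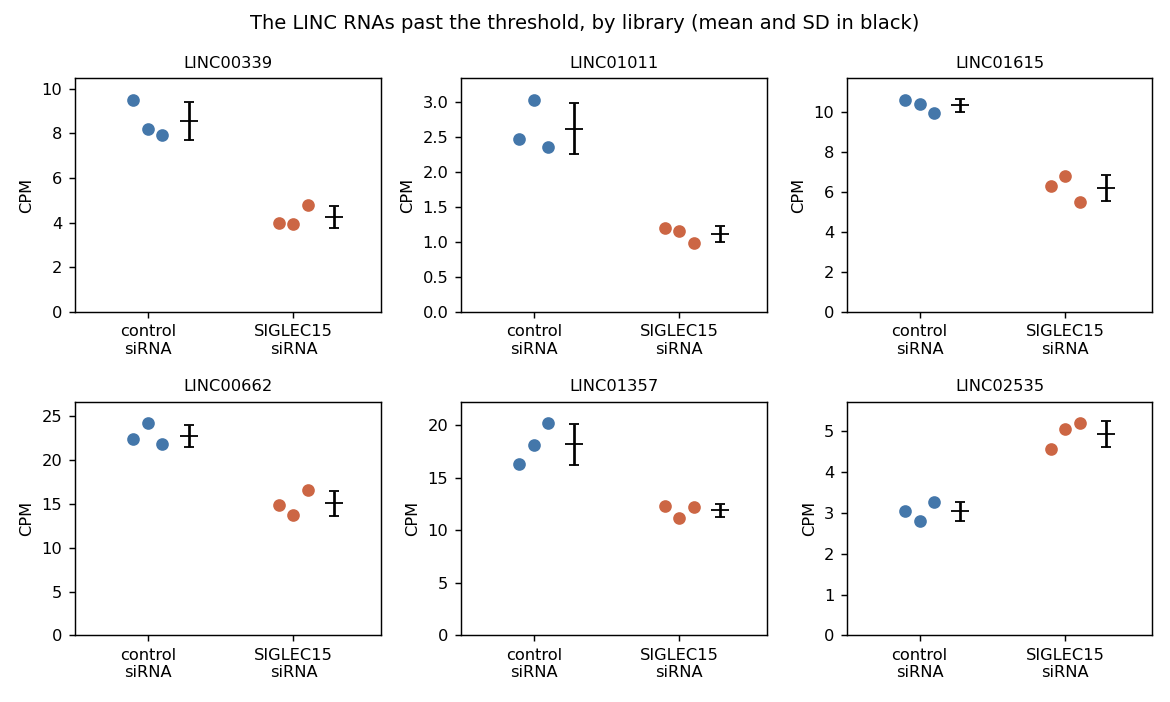
CPM in each library for the 6 LINC RNAs with an adjusted p under 0.05, with the group mean and SD in black and axes from 0. LINC00339, LINC01011, LINC01615, LINC00662 and LINC01357 lie lower in all 3 SIGLEC15 siRNA libraries, and LINC02535 lies higher in all 3.

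LINC00339 (ENSG00000218510, chromosome 1, 22024558 to 22031223, plus strand) is read from a locus that overlaps CDC42, whose product organises the actin cytoskeleton. The deposited transcript types of LINC00339 are processed transcript and pseudogene. Its level was 9.51, 8.18 and 7.94 CPM in the control libraries and 3.98, 3.94 and 4.80 CPM in the SIGLEC15 siRNA libraries. Even the highest SIGLEC15 siRNA library stood well under the lowest control. The log2 fold change was -1.01 (SE 0.148, adjusted p = 0.0161, edgeR quasi-likelihood test), a 2.01-fold lower level and the smallest adjusted p among the members. CDC42 on the same strand had 295.9, 339.9 and 313.7 CPM against 388.2, 358.2 and 350.0 CPM, and its log2 fold change of 0.21 did not pass (adjusted p = 0.193). Exon bases of LINC00339 are shared on the same strand with the clone-named genes AL031281 and AL590556, which held few counts, and the log2 ratio of the summed CPM was -0.96.

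LINC01011 (ENSG00000244041, chromosome 6, 2987967 to 2991173, plus strand) lies inside the locus of NQO2, which encodes a quinone reductase, and shares exon bases with it on the same strand. LINC01011 had 2.47, 3.03 and 2.35 CPM in the control and 1.20, 1.15 and 0.984 CPM in the SIGLEC15 siRNA libraries, with a log2 fold change of -1.23 (SE 0.199, adjusted p = 0.0218). NQO2 had 19.1, 17.8 and 18.3 CPM against 24.9, 20.7 and 25.7 CPM, higher in all 3 SIGLEC15 siRNA libraries but not past the threshold (log2 fold change 0.37, adjusted p = 0.136). The 2 genes share sequence and had differences of opposite sign. How reads were divided between them is not stated in the labels. The log2 ratio of their summed CPM was 0.24, against -1.24 for LINC01011 alone, so the fall of LINC01011 is uncertain as a statement on the locus.

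LINC01615 (ENSG00000223485, chromosome 6, 169157162 to 169162924, minus strand) has as its nearest coding gene THBS2, which encodes the matrix protein thrombospondin 2, 52.9 kb away on the same strand. LINC01615 had 10.6, 10.4 and 9.94 CPM against 6.28, 6.76 and 5.47 CPM, with narrow spread in both groups (log2 fold change -0.74, SE 0.126, adjusted p = 0.0255). THBS2 had 14.3, 31.8 and 29.2 CPM in the control and 31.4, 34.2 and 30.3 CPM in the SIGLEC15 siRNA libraries, where 1 control library is low and the groups overlap (adjusted p = 0.574).

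LINC00662 (ENSG00000261824, chromosome 19, 27684580 to 27793940, minus strand) has been studied for its effects on growth in cultured tumour cells. It was the most abundant by count among those that passed, with 22.4, 24.2 and 21.8 CPM in the control and 14.9, 13.7 and 16.6 CPM in the SIGLEC15 siRNA libraries. The groups were clearly apart (log2 fold change -0.60, SE 0.110, adjusted p = 0.0328). It stands far from coding genes: the nearest, UQCRFS1 of respiratory complex III, is 1411.4 kb away, the widest gap among the members, and had a log2 fold change of 0.06 (adjusted p = 0.686).

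LINC01357 (ENSG00000224167, chromosome 1, 112850028 to 112877871, plus strand) and LINC01356 (ENSG00000215866, chromosome 1, 112820170 to 112850643, minus strand) lie on opposite strands. In the deposited coordinates their 5′ ends overlap by 616 bases, so that each is read across the start of the other. LINC01357 fell from 16.3, 18.1 and 20.2 CPM to 12.3, 11.2 and 12.2 CPM (log2 fold change -0.61, SE 0.116, adjusted p = 0.0362). LINC01356 had 14.0, 13.0 and 15.9 CPM against 10.4, 9.88 and 10.3 CPM, also with groups apart, and missed the threshold (log2 fold change -0.49, SE 0.115, adjusted p = 0.0683). The pair therefore had lower values in the same libraries. Their exons share bases on opposite strands, and whether counting used strand is not stated, so that reads over the shared bases cannot be assigned to 1 of them. Over 69.0% of its length the longest LINC01357 transcript has sequence at least 95% identical to SLC16A1-AS1, the antisense RNA of SLC16A1. SLC16A1-AS1 did not follow it, with 27.1, 31.9 and 30.4 CPM against 32.6, 34.3 and 33.1 CPM (log2 fold change 0.16, adjusted p = 0.402). SLC16A1 itself, 34.0 kb from LINC01357, had a log2 fold change of 0.10 (adjusted p = 0.387).

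LINC02535 (ENSG00000234155, chromosome 6, 85387219 to 85390186, minus strand) was the 1 member that rose. It had 3.05, 2.79 and 3.27 CPM in the control and 4.57, 5.04 and 5.19 CPM in the SIGLEC15 siRNA libraries, a gap wider than the spread of either group (log2 fold change 0.70, SE 0.145, adjusted p = 0.0470). Its nearest coding gene is NT5E, 59.4 kb away, which encodes the cell-surface nucleotidase CD73. NT5E had 108.2, 100.3 and 94.2 CPM against 117.8, 111.0 and 113.5 CPM, with groups apart but no call (log2 fold change 0.18, adjusted p = 0.247).

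These 6 calls were close to the threshold. With any 1 of the 6 libraries left out, LINC00339 was the only one that still passed, and only when the left-out library was control replicate 3 or SIGLEC15 siRNA replicate 3. The direction of each of the 6 held in every alternative in which it was tested. With DESeq2 17 members passed, 3 higher and 14 lower, beside 15.4% of all genes tested, and all 6 were among them. With no filter on low counts LINC01357 and LINC02535 no longer passed, and with the replicate number as a block none of the 6 did.

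Beyond the 6, the members leaned toward lower values in the SIGLEC15 siRNA group. The median log2 fold change of the 89 was -0.211, beside -0.006 over all genes tested, and 62 of the 89 were below 0. The middle of the members ran from -0.47 to 0.1 between the quartiles, beside -0.23 to 0.2 for all genes tested. At an unadjusted p under 0.05 (edgeR quasi-likelihood test) there were 22 of 89 members, 19 lower and 3 higher. Beside this stood 19.1% of all genes tested (1841 lower and 1769 higher). It also held for 3242 of the 13615 tested genes with a mean control count of at least 100 (1676 lower and 1566 higher). Other genes without a protein-coding type at that level leaned lower too, with a median log2 fold change of -0.069 and 61.1% below 0. Of 1543 such genes tested, 164 were lower and 45 higher at an unadjusted p under 0.05. The groups did not overlap for 32 members (36.0%), of which 28 were lower and 4 higher. The share was 26.6% of all genes tested and 31.1% at the members' count level. As separate directions, groups apart and lower made up 13.7% and groups apart and higher 12.9% of all genes tested. At the members' count level these were 2199 and 2030 of 13615 genes, and 232 and 86 of 1543 other genes without a protein-coding type. Per library, the members' median log2 difference from the control mean was -0.045, -0.006 and 0.042 in the control libraries and -0.166, -0.232 and -0.185 in the SIGLEC15 siRNA libraries, so that each SIGLEC15 siRNA library lay below each control library. The members' share of all counts was 0.0716%, 0.0702% and 0.0684% in the SIGLEC15 siRNA libraries, under the control shares given above.

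The rule reads the control libraries alone, so a member that stood high there by chance enters and one that stood low does not, which tilts the differences downward near the threshold. Chosen instead by a mean of at least 100 over all 6 libraries, 86 LINC RNAs had a median of -0.181, with 56 of 86 below 0 and the same 6 past the threshold. This choice loses 6 members and gains LINC01588, LINC00863 and LINC01137. Members with at least 500 control counts on average, far from the threshold, had a median of -0.188 over 35 RNAs with 4 calls (11.4%, beside 7.16% of all genes at that level). The 54 below that had -0.237 with 2 calls (3.7%, beside 3.23% of all genes with 100 to under 500 control counts). Other genes without a protein-coding type chosen by the 6-library mean had a median of -0.047, with 57.3% below 0, and all genes so chosen 0.001. No test of the members as a set was made.

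**Figure D3:**
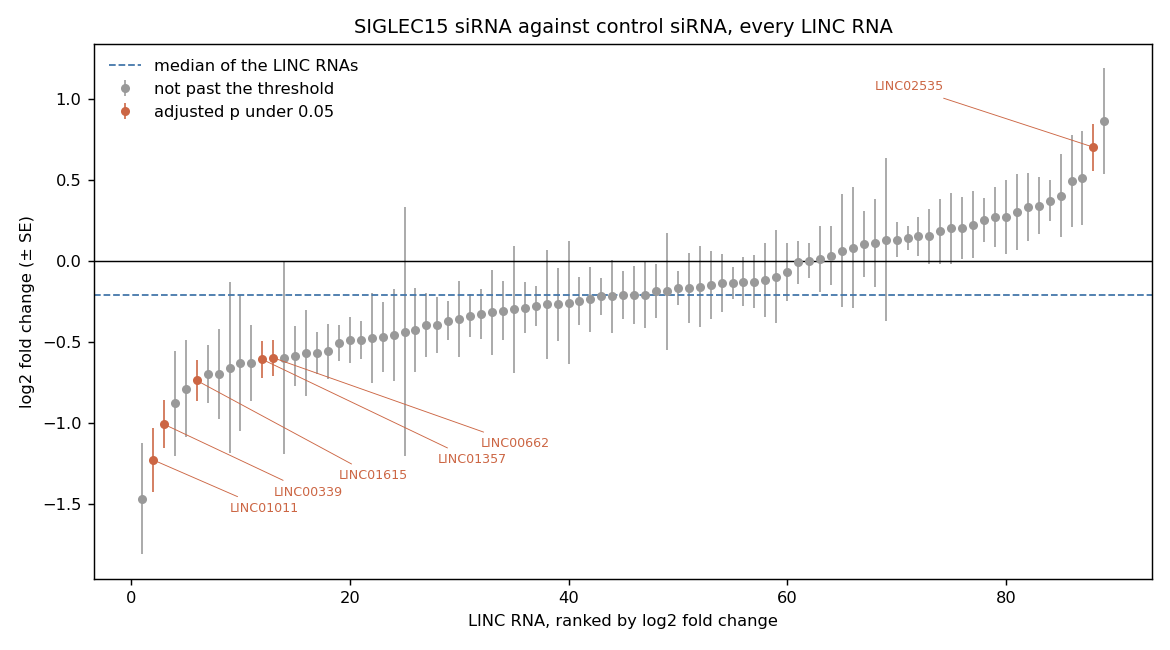
Log2 fold change of SIGLEC15 siRNA against control siRNA with its SE for each of the 89 LINC RNAs, in rising order, with the 6 past the threshold in orange and the members' median of -0.211 as a dashed line. Most points lie below 0, and several large differences have a wide SE and did not pass.

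Several members just missed the threshold or had large but scattered differences. LINC02001, the SNORD7 host, had 12.7, 13.9 and 13.8 CPM against 10.4, 8.97 and 9.14 CPM (log2 fold change -0.51, adjusted p = 0.0559). LINC01605 had 6.46, 5.64 and 5.78 CPM against 4.10, 4.06 and 3.86 CPM (log2 fold change -0.57, adjusted p = 0.0634). In both the groups were apart and the spread was small. LINC01119 had the most negative log2 fold change of all members, -1.47 (SE 0.344, adjusted p = 0.0669), from 2.65, 1.27 and 1.32 CPM in the control and 0.636, 0.611 and 0.641 CPM in the SIGLEC15 siRNA libraries. Its first control replicate was well above the other 2, while the SIGLEC15 siRNA libraries were nearly equal. LINC01963 had 5.30, 6.75 and 7.66 CPM against 4.36, 3.70 and 4.04 CPM (adjusted p = 0.0807).

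The remaining members among the 6 largest differences that did not pass were LINC01293, LINC00337, LINC02035 and LINC02211. LINC01293 had 2.36, 1.61 and 1.32 CPM against 0.711, 0.883 and 1.27 CPM (log2 fold change -0.88), and LINC00337, which overlaps the isoprenylcysteine methyltransferase gene ICMT on the opposite strand, had 1.91, 1.73 and 3.48 CPM against 1.32, 1.41 and 1.39 CPM (-0.79). LINC02035 had 2.50, 3.77 and 2.94 CPM against 1.65, 2.56 and 1.46 CPM (-0.70). LINC02211 had the highest log2 fold change of all members, 0.86, with 2.68, 3.59 and 1.73 CPM against 5.46, 5.79 and 3.33 CPM, and here the groups overlapped. Adjusted p-values of these 4 ran from 0.202 to 0.237.

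Of the 4 members whose SIGLEC15 siRNA libraries all lay above the control libraries, LINC02535 alone passed. LINC00839, the most abundant of them, had 44.5, 44.0 and 43.7 CPM against 51.7, 47.2 and 46.9 CPM, a log2 fold change of 0.14 (SE 0.0735, adjusted p = 0.366). LINC00294 had 12.8, 13.3 and 15.5 CPM against 18.4, 19.4 and 16.0 CPM (0.37, adjusted p = 0.167) and LINC00189 3.50, 3.18 and 2.63 CPM against 4.37, 3.68 and 3.74 CPM (0.34, adjusted p = 0.354). LINC00294 and LINC00189 were named after their values were seen.

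LINC RNAs with a literature in cell culture were taken as a list of their own. Of 61 such RNAs 33 could be tested, and 0 were higher and 1 was lower, beside 2.22% and 2.43% of all genes tested, with a median log2 fold change of -0.248. The 22 of them that are members had a median of -0.262, with 19 of the 22 below 0. Groups were apart and lower for 9 of the 22, beside 13.7% of all genes tested. At a mean control count of at least 100 this held for 2199 of 13615 genes. LINC00662 was the 1 that passed. LINC00511, known as a scaffold for the histone methyltransferase EZH2, had 11.4, 10.8 and 16.6 CPM against 8.64, 6.15 and 11.3 CPM, with overlapping groups (log2 fold change -0.57, adjusted p = 0.315). LINC01138 had 13.9, 15 and 18.2 CPM against 9.67, 12.9 and 9.51 CPM (-0.56, adjusted p = 0.136), and LINC00857, whose start site lies beside that of the annexin gene ANXA11, 9.57, 9.94 and 10.4 CPM against 7.35, 5.98 and 7.99 CPM (-0.49, adjusted p = 0.119). In both of these the groups were apart. LINC01278 was level, at 37.1 ± 4.46 against 37.0 ± 1.44 CPM.

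A list of long non-coding RNAs that carry names of their own served as a comparison. Of 56 tested, 1 was higher and 1 lower, beside 2.22% and 2.43% of all genes tested, with a median log2 fold change of -0.159. The higher one was LUCAT1, a stress-induced RNA, at 4.57 ± 0.695 against 9.89 ± 1.33 CPM (log2 fold change 1.11, SE 0.170, adjusted p = 0.0181). The lower one was SNHG1, a small nucleolar RNA host gene, at 74.6 ± 0.225 against 52.9 ± 4.62 CPM (-0.50, SE 0.0819, adjusted p = 0.0234). The lower median was therefore not found in the LINC RNAs alone, and the difference between the lists was not tested. Among LINC genes under the threshold of 100 counts, 161 could be tested, with a median of -0.039. Of these 1 passed (0.621%, beside 4.65% of all genes tested). Of the 879 genes called among all tested, 847 had a mean control count of at least 100, so calls below that were few for any gene type. The LINC gene that passed was LINC00599, the host of a neuronal microRNA, with 61, 65 and 59 counts against 25, 26 and 19.

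A share of the members was scattered within a group. For 15 of 89 (16.9%) the highest library of a group was at least 2 times the lowest in CPM, beside 11.3% of all genes with at least 100 control counts and 17.9% of other non-coding genes at that level. This happened in the control group for 9 members, in the SIGLEC15 siRNA group for 9, and in both for 3. No library was the odd one out for more than 4 of these members. LINC01128 had 1231, 1234 and 1120 counts in the control libraries and 1069, 202 and 1183 in the SIGLEC15 siRNA libraries. Its log2 fold change of -0.66 (adjusted p = 0.572) rested on SIGLEC15 siRNA replicate 2, and without that library it was -0.22 (adjusted p = 0.465; 0.409 to 0.719 over its alternatives). LINC00261, the neighbour of the endoderm factor FOXA2, had 98, 113 and 119 counts against 117, 8 and 141.

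The same pattern of 1 low library was seen in the control group. LINC00632, the precursor of the circular RNA CDR1-AS, had 234, 228 and 55 control counts against 180, 174 and 245. These counts come from poly(A) RNA and cannot separate circular from linear forms. LINC00707 had 266, 67 and 286 against 234, 114 and 81 counts, uneven in both groups, and LINC00205 had 691, 1485 and 1322 against 1485, 1567 and 816. The low library differs from gene to gene: LINC01128, LINC00261 and LINC00476 were low in SIGLEC15 siRNA replicate 2, LINC00632 in control replicate 3 and LINC00707 in control replicate 2. These members were named for their spread after their values were seen. None of the 6 that passed was among the 15.

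**Figure D4:**
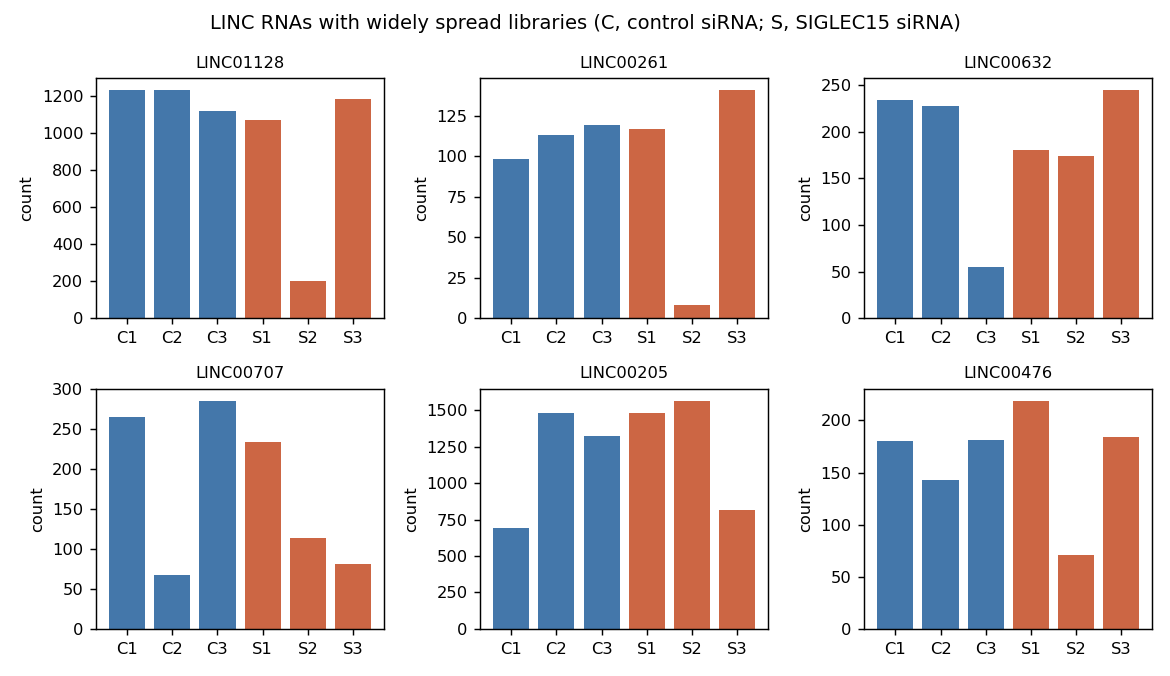
Counts per library for 6 of the 15 LINC RNAs whose highest library in a group was at least 2 times the lowest, with bars for control replicates 1 to 3 (C1 to C3) and SIGLEC15 siRNA replicates 1 to 3 (S1 to S3). LINC01128 and LINC00261 drop in S2 alone, to 202 and 8 counts, and LINC00632 drops in C3 to 55.

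Members were compared with the coding genes beside them. The gap to the nearest protein-coding gene had a median of 15.8 kb, and 20 of the 89 (22.5%) overlapped a coding gene, beside 50.5% of 4994 other tested genes without a protein-coding type. For 9 members (10.1%, beside 15.2%) a coding gene started on the opposite strand within 5000 bases and pointed away. A LINC symbol is given by position, so the lower share that overlapped was in part set by the choice of members. The nearest coding gene could be tested for 75 members, and for 5 of these it was called. Beside this stood 4.65% of all genes tested and 6.76% of protein-coding genes with a mean control count of at least 100. WNT7B, a Wnt ligand gene 62.7 kb from LINC00899, had a log2 fold change of -0.89 (adjusted p = 0.00352), with LINC00899 at 0.20. DCBLD2 near LINC00973 had 0.69 (adjusted p = 0.00326) and LINC00973 0.49. CAPN15, whose start lies 305 bases from that of LINC00235, had -0.62 (adjusted p = 0.0149) and LINC00235 -0.16. TPST1, a tyrosylprotein sulfotransferase gene that overlaps LINC00174, had -0.46 (adjusted p = 0.0189) and LINC00174 -0.13, and TRAF5 near LINC00467 had 0.43 (adjusted p = 0.0475) and LINC00467 -0.19. None of these 5 neighbours lay beside a member that passed, and they were named as the called ones after their values were seen.

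None of the nearest coding genes of the 6 members that passed was called, and in 5 of the 6 pairs the LINC RNA was lower while its neighbour's log2 fold change was above 0. Over the 75 pairs the signs were the same in 34, and Pearson's r across pairs was -0.0902, given as a description since all pairs share the 6 libraries and several members share a neighbour.

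**Figure D5:**
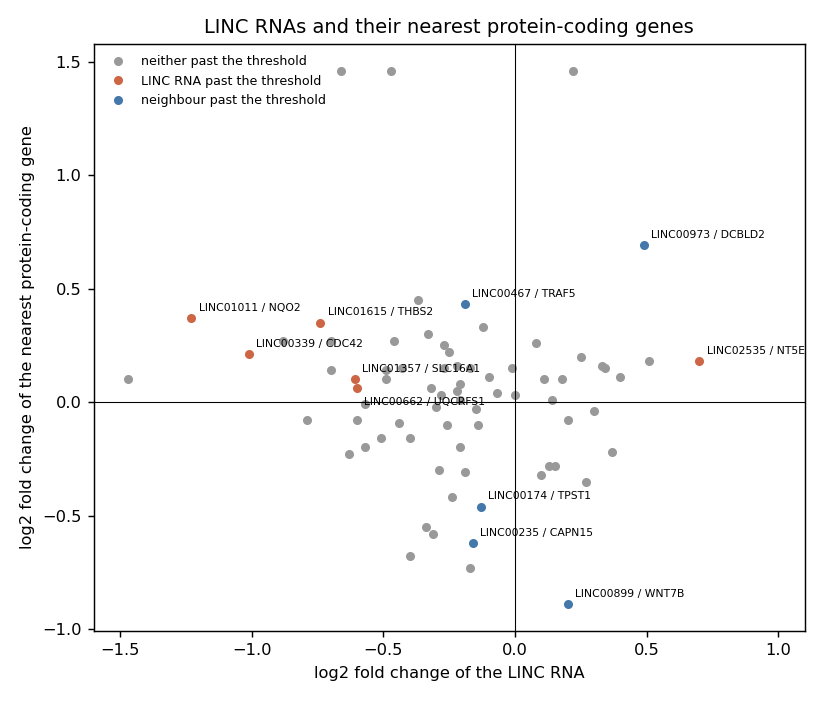
Log2 fold change of each LINC RNA (horizontal) against that of its nearest protein-coding gene (vertical) for the 75 pairs tested, with LINC RNAs past the threshold in orange and neighbours past it in blue. The orange and blue points are different pairs, and the cloud shows no slope, with r = -0.0902.

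The members share features of structure and position that the rule did not use. They lie on 22 chromosomes, with 15 on chromosome 1. In GENCODE 29, the gene annotation with which 71 of the 89 agree in start and end, the longest transcript of a member had a median of 2443 bases and 3 exons, and 22 had a single exon. Their median GC content was 46.6%, beside 47.8% for other tested non-coding genes, whose median length was 1154 bases. The heptamer AGGCTCA was counted because of an earlier look at these libraries, which is not shown here. It was in the longest transcript of 23 members (25.8%), beside 14.4% of the other tested non-coding genes, which are shorter. Members with AGGCTCA had a median log2 fold change of -0.211 and those without it -0.213. Below 0 were 78.3% of those with it and 66.7% of those without, while 4.35% and 7.58% were called. Of the 6 that passed LINC01357 alone held it.

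Some members cannot be read as separate units. Exon bases were shared on the same strand with another gene for 21 members and on the opposite strand for 36, and 14 had sequence at least 95% identical elsewhere over at least 50% of the transcript, which leaves 57 with neither same-strand sharing nor a near copy. Members with same-strand sharing had a median log2 fold change of -0.215 and the others -0.2. The 14 with a near copy had -0.122, among them LINC00342 and LINC02211, which is similar to NORAD over 54.4% of its length. LINC00843 shares exon bases with TIMM23B, a mitochondrial import gene, and its log2 ratio of 0.51 became -0.26 for the summed CPM. LINC02001 shares bases with SNORD7 and LINC00461 with MIR9-2, and their sums gave -0.51 and -0.32, close to the values of the host RNAs alone.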

How the data were processed

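Poly(A) RNA of 6 libraries was sequenced as read pairs, per the labels' protocols. The authors deposited whole-number counts and FPKM values per gene, per the file headers; HISAT, StringTie and edgeR are named in the submitters' processing notes, with no versions. For the build, the strand setting and the counting method the label texts give nothing. FPKM implied lengths near the exon union of GENCODE 29 (ratio 1.1 to 1.3) for 82 of 89 members. No column was left out.

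Counts of all 58825 genes were filtered (filterByExpr, minimum count 10, minimum total 15), scaled by TMM and tested with edgeR 4.0.16 in R 4.3.3 (quasi-likelihood F test, no covariate), with Benjamini-Hochberg adjustment over 18910 genes and a threshold of 0.05. SE is the log2 fold change over the square root of F. The fit was tested on simulated data. Total counts ran from 57966691 to 67655254.

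Members and lists were chosen with earlier results of these data known. Named are the members past the threshold, the 8 most abundant, the 6 largest differences not past it, the literature list, those at the threshold, and neighbours; others are marked. The spread measure, the 500-count split, the similarity rule, the motifs and the heptamer were chosen after values were seen. Similar sequence was found with BLAST 2.17.0 against GENCODE 29 transcripts. Alternatives were median-of-ratios scaling, DESeq2 1.42.0, no filter, a mean FPKM of at least 1, limma-trend 3.58.1 on the log2 of FPKM plus 1 or plus 0.1 (mean FPKM at least 0.1), a replicate block, left-out libraries and 3 other member rules.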

Additional observations from a re-analysis of the deposited data

How the results depend on the processing

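The median log2 fold change of the LINC RNAs stayed below 0 in all 13 refits and under the 3 other member rules. It was -0.105 with limma-trend on log2(FPKM + 1), a scale that shrinks low values, and -0.248 to -0.167 with 1 library left out. The 6 calls did not all hold. DESeq2 called 17 members, 3 higher and 14 lower, among 2916 genes. limma-trend on log2(FPKM + 1) and on log2(FPKM + 0.1) each tested 88 members and called 8 lower and LINC02535 higher. Of all genes tested these fits called 4.09% and 4.06%. No filter on low counts, which ended the calls of LINC01357 and LINC02535, and a member rule of at least 200 control counts left 0 higher. Left-out libraries gave 0 to 1 members called, 0 higher and 0 to 1 lower, among 260 to 431 genes, with fewer samples in each fit. Each of the 6 libraries, when left out, ended at least 5 of the 6 calls.

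The replicate block called 0 members, 0 higher and 0 lower, among 50 genes. The numbers do not pair the samples: same-numbered libraries had correlated deviations of -0.0489, 0.0111 and -0.0626, and not every sample correlated best with its own number. Each of the 6 kept its sign in every setting in which it was tested. LINC00339 was called in 8 of 13, LINC00662 and LINC01615 in 6 of 13, LINC01357 and LINC02535 in 5 of 13 and LINC01011 in 5 of 12.

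Signs turned for 3 named members near 0 or with scattered libraries, and the cause was not tested. LINC00205 was -0.20 without control replicate 1 and -0.16 without SIGLEC15 siRNA replicate 2. LINC01232 was 0.15 without SIGLEC15 siRNA replicate 1. LINC01278 was 0.00 with median-of-ratios scaling, DESeq2, both limma settings and the replicate block, 0.10 without control replicate 1 and 0.03 without SIGLEC15 siRNA replicate 3. With 1 library left out the 3 ran from -0.20 to 0.35, -0.38 to 0.15 and -0.07 to 0.10.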
